A study of Mus musculus with 6 samples.

Results

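The genes described here are 10 mouse genes through which gut cells sense or take up fatty acids and related small acids, chosen by name from the 32219 genes of the expression table. They are 8 receptor genes (Ffar1, Ffar2, Ffar3, Ffar4, Hcar1, Hcar2, Gpr84 and Olfr78) and 2 transporter genes (Slc16a1 and Slc5a8). Ffar3, which encodes GPR41, stands in the title of the series. All 10 genes were in the table, and 9 of them were above 0 in at least 3 of the 5 libraries tested. Gpr84, above 0 in 2 libraries, was not tested.

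The study profiled polyadenylated RNA of mouse intestine in 6 libraries, 3 with the genotype label WT (wild type) and 3 with the label KO (knockout). The series speaks of the whole duodenum, and the cell type label names epithelium, immune cells and enteric neurons. Unknown here are the gene that was deleted, the means of deletion, the strain, age and sex of the mice and whether each library is a separate animal: none of these is given in the sources used here. No treatment is labelled. All p-values therefore rest on the spread among 5 libraries, part of which may be technical. Values are given in the order WT 1, WT 2, WT 3.

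Short-chain fatty acids are made by gut bacteria from fibre, and acetate, propionate and butyrate are the main ones. Epithelial cells take them up through monocarboxylate transporters and burn butyrate in particular, while receptors on hormone-secreting cells, enteric neurons and leukocytes read their concentration. Longer fatty acids from the diet are read by a separate pair of receptors, and lactate, ketone bodies and medium-chain fatty acids by further receptors.

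The values are read here as log2(abundance + 1). Log base, added constant and abundance unit were not stated in the sources used here. Depth is unknown, so no counting error can be given. For genes near 0, the added constant compresses any difference. The library KO 1 has no values on chromosomes 2 to 9, X, Y and M and on chromosome 19 beyond position 10207824, and it listed 9729 genes above 0 where the other libraries listed 22061 to 22768. It covers 2 of the 10 genes, Slc5a8 and Gpr84. For the other 8, its 0 is a missing value. On the genes it covers, KO 1 stood 2.12-fold above the other libraries at the median, and rescaled values have been divided by that factor. KO was therefore compared with WT in 5 libraries, WT 1 to 3 against KO 2 and KO 3, and KO 1 is given beside them. In those 5 libraries, the ileal bile acid transporter gene Slc10a2 stood at 5.98 to 6.76 and Gata4, a factor of the proximal small intestine, at 0.43 to 0.63, which goes against the duodenum named by the series. The listed markers of epithelium (8 of 8), enteric neurons (10 of 10), macrophages (7 of 7) and B and T cells (5 of 5) were above 0 in all 5, and so were those of smooth muscle (6 of 6), which the cell type label does not name.

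None of the 9 genes tested passed in the comparison of KO with WT. By limma, 0 of 9 passed an adjusted p of 0.05, where 0.00454% of 22047 genes did (1 gene, Gm49380, named after its values were seen). At an unadjusted p under 0.05 the count was 0 of 9, where 2.23% of all genes were. Of the 9, 6 had a higher mean in KO and 3 a lower one, and the median log2 difference was 0.04, against 0.03 over all 22047 genes, of which 61.1% were higher. The differences ran from -0.09 for Olfr78 to 0.16 for Ffar1. In 0 of the 9 did the KO and WT groups lie apart, where 13.6% of all genes had groups that do not overlap (9.82% higher and 3.77% lower in KO). The 95% intervals of the 9 differences lay between -0.44 and 0.68. In bulk tissue, fewer cells of a type and less RNA per cell cannot be told apart.

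**Figure D1:**
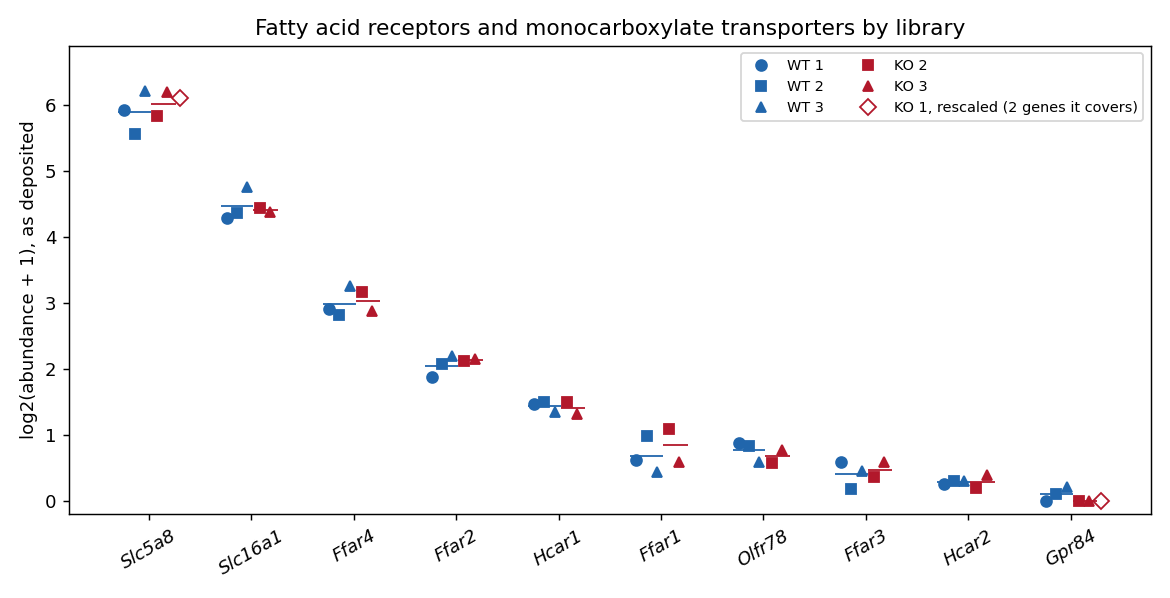
Deposited log2(abundance + 1) of the 10 genes (y axis) by gene (x axis, ordered by mean). Filled symbols are single libraries, blue for WT and red for KO, horizontal lines are group means, and open diamonds are the rescaled KO 1 for the 2 genes it covers. Slc5a8 sits between 5.56 and 6.21 and Gpr84 between 0 and 0.21, and in no gene tested do the WT and KO symbols separate.

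The 10 genes covered a wide range of levels in the 5 libraries. By mean log2 value they ran from Slc5a8 (5.95) and Slc16a1 (4.45) through Ffar4 (3.01), Ffar2 (2.08) and Hcar1 (1.43) to Ffar1 (0.75), Olfr78 (0.73), Ffar3 (0.44), Hcar2 (0.29) and Gpr84 (0.06). From Slc5a8 down to Ffar1, each gene's lowest library was above the next gene's highest. From Ffar1 downwards, neighbours in the order overlapped. Whether the authors' unit is corrected for gene length was not stated in the sources used here, so the order is that of the deposited values. Across 12949 protein-coding genes above 1, which are not independent replicates, the level and the exonic length had a Spearman rho of 0.07.

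The receptor genes for short-chain fatty acids were low to moderate. Ffar2, Ffar3 and Ffar1 lie side by side on chromosome 7, all on the minus strand (mm10, annotation GENCODE vM21), within 43217 bases. Ffar1 (30857390 to 30861564) comes first in the direction of transcription, Ffar3 (30854330 to 30856178) starts 1211 bases beyond its end, and Ffar2 (30818348 to 30823775) follows after another 30554 bases. No other annotated gene lies between them, and their exons overlap no other gene.

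**Figure D2:**
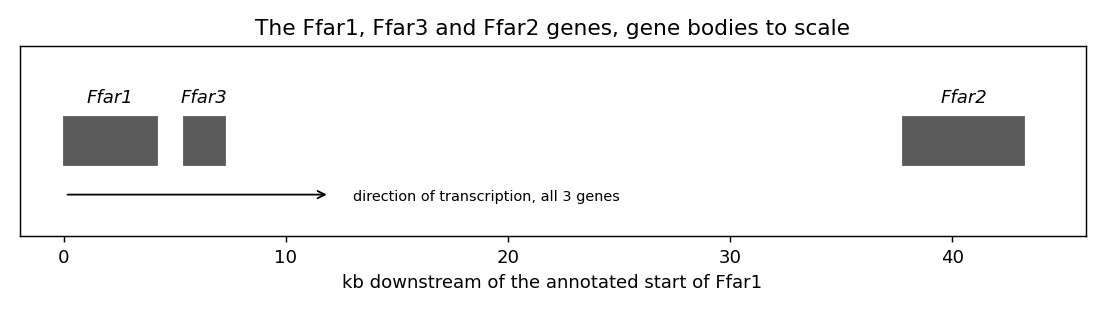
Gene bodies of Ffar1, Ffar3 and Ffar2 drawn to scale along the direction of transcription (x axis, kb from the annotated start of Ffar1). Ffar1 and Ffar3 are 1211 bases apart, and Ffar2 lies 30554 bases beyond Ffar3.

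Ffar3 encodes GPR41, a receptor for propionate and butyrate found on enteric and sympathetic neurons and on hormone-secreting cells. Its log2 values were 0.60, 0.18 and 0.46 in WT, against 0.35 in KO 2 and 0.59 in KO 3. WT 2 was the lowest library, and both KO values lay within the WT range. The difference was 0.06 ± 0.14 (SE; limma adjusted p = 0.99998), with a 95% interval of -0.28 to 0.40. If KO stood at 0, the difference would be -0.41, and both KO libraries were above 0. These values are near 0 and depth is unknown, and whether Ffar3 is the deleted gene was not tested. The summed level of 10 enteric neuron markers was 5.32, 5.55 and 5.46 in WT, against 5.11 in KO 2 and 5.84 in KO 3. WT 2, lowest in Ffar3, was not low in these markers. It was the lowest library in the summed level of 10 enteroendocrine markers, at 6.88 against 7.01 to 7.05 in the others. Single markers differed: WT 2 was the lowest library in Sct (3.99) and Nts (3.92) and the highest in Tph1 (1.62). The part of either cell type in the Ffar3 values was not tested.

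Ffar2 encodes GPR43, a receptor for acetate and propionate on leukocytes and hormone-secreting cells. Its deposited values were above those of Ffar3 in every library, at 1.87, 2.07 and 2.19 in WT, against 2.12 in KO 2 and 2.16 in KO 3. WT 1 was the lowest, and KO 2 and KO 3 lay between WT 2 and WT 3. The difference was 0.10 ± 0.16 (SE; limma adjusted p = 0.99998). Olfr78 (chromosome 7, 102738511 to 102759471, minus strand), an olfactory-type receptor for acetate and propionate, stood at 0.88, 0.84 and 0.59 in WT, against 0.58 in KO 2 and 0.78 in KO 3. KO 2 and WT 3 were the low libraries, and the difference was -0.09 ± 0.13 (SE; limma adjusted p = 0.99998). Of the exonic bases of Olfr78, 15.3% are shared with Olfr560 on the same strand, which stood at 0.04 to 0.30, so the assignment of reads between these 2 genes is uncertain.

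The transporter genes had the highest levels. Slc5a8 (chromosome 10, 88885992 to 88929515, plus strand) encodes SMCT1, which carries short-chain fatty acids, lactate and ketone bodies into the cell together with sodium. It stood at 5.94, 5.56 and 6.21 in WT, against 5.84 in KO 2 and 6.21 in KO 3. WT 2 was the lowest library, and WT 3 and KO 3 the highest. The difference was 0.12 ± 0.21 (SE; limma adjusted p = 0.99998), with a 95% interval of -0.39 to 0.63. The summed level of 8 epithelial markers was also lowest in WT 2 (10.2) and next lowest in KO 2 (10.3), with the other 3 libraries at 10.5. The part of epithelial content in the Slc5a8 values was not tested.

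Slc5a8 is the single member with a value above 0 in KO 1, at 7.18 as deposited and 6.11 rescaled. The rescaled value lay within the range of the other 5 libraries, 5.56 to 6.21, and 0.21 above the WT mean. Markers of gut position moved far more in that library. Fabp6, which binds bile acids in ileal cells, was at 3.91 rescaled against 8.16 to 8.76, Gata4 at 5.19 against 0.43 to 0.63, and Lct, the lactase gene, at 7.05 against 1.08 to 2.01. Slc51a, a basolateral bile acid transporter gene of the ileum, was closer, at 6.54 against 6.86 to 7.21. Smooth muscle genes were also far lower in KO 1, with Myh11 at 3.80 rescaled against 7.34 to 7.82 and Des at 2.25 against 6.82 to 7.37. In this library, genotype cannot be told apart from gut position or tissue content. Of 2160 covered genes at 4 or more, 37.8% were, like Slc5a8, within the range of the other libraries after rescaling. With the rescaled KO 1 in the fit, the Slc5a8 difference was 0.15 (limma adjusted p = 0.99994).

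**Figure D3:**
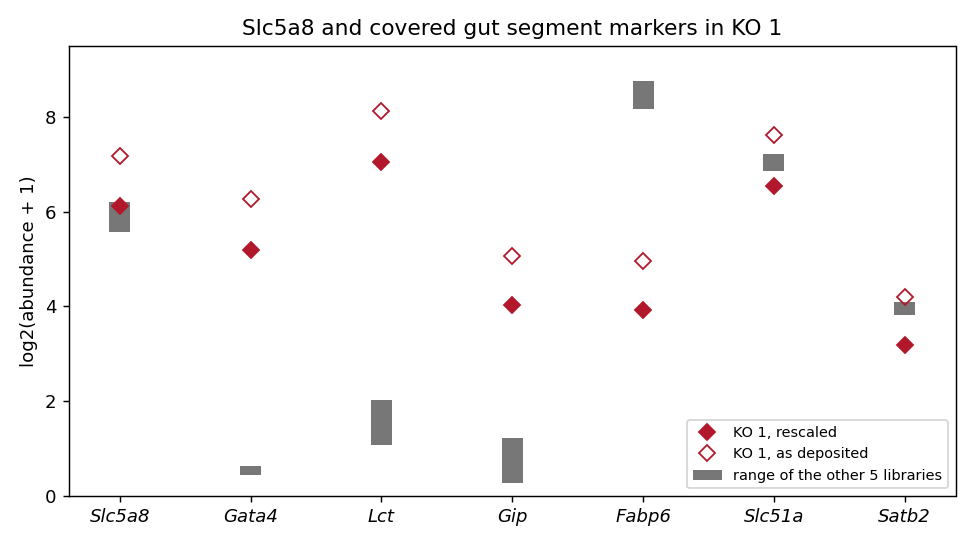
Level of Slc5a8 and of 6 gut segment markers that KO 1 covers (y axis, log2(abundance + 1)), with grey bars for the range of the other 5 libraries and diamonds for KO 1, filled after rescaling and open as deposited. Rescaled Slc5a8 (6.11) lies inside its bar, whereas Gata4 (5.19), Lct (7.05) and Gip (4.02) lie above theirs and Fabp6 (3.91) below.

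Slc16a1 (chromosome 3, 104638668 to 104658462, plus strand) encodes MCT1, which moves lactate, pyruvate and butyrate with protons. It stood at 4.29, 4.37 and 4.76 in WT, against 4.45 in KO 2 and 4.37 in KO 3. WT 3 was the highest library, and both KO values lay within the WT range. The difference was -0.06 ± 0.15 (SE; limma adjusted p = 0.99998), and it was 0.08 without WT 3. Bsg, the chaperone that brings MCT1 to the membrane, varied little, from 6.66 to 6.75 in the 5 libraries.

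The upstream sequences of the 4 genes for short-chain fatty acids that the annotation tables hold are shown because the transporters stood above the receptors in all 5 libraries. Each line is the 250 bases before the RefSeq start (GRCm38.p6), 5′ to 3′ on the gene's strand, with CpG dinucleotides in capitals. The windows are chr7:30823776-30824025 (minus strand, the outermost of 4 listed starts) for Ffar2, chr7:30856179-30856428 (minus) for Ffar3, chr3:104638414-104638663 (plus) for Slc16a1 and chr10:88885742-88885991 (plus) for Slc5a8.
Ffar2: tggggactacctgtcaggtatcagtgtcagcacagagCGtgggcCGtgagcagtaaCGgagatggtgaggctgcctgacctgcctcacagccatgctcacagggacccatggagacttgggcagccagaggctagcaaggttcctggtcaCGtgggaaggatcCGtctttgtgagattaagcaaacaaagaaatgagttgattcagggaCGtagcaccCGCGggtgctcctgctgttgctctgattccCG
Ffar3: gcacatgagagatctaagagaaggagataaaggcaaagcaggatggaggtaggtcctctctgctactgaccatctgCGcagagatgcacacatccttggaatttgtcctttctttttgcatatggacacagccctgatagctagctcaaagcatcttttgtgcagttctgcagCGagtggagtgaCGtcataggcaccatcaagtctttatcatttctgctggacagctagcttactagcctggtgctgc
Slc16a1: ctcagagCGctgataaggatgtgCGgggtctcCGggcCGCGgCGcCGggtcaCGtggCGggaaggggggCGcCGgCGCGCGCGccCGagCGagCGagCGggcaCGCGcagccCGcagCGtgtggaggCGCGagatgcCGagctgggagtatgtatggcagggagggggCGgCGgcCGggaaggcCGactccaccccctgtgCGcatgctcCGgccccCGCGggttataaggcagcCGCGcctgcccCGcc
Slc5a8: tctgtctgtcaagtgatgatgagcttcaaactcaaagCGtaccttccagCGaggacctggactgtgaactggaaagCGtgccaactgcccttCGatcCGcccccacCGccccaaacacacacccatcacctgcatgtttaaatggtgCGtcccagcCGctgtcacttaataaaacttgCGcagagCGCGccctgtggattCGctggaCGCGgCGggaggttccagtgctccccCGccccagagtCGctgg

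The Slc16a1 window held 37 CpG, a count reached by 2.20% of 32851 listed promoter windows of the same length. Slc5a8 held 17 (reached by 23.5%), this Ffar2 window 9 (40.3%) and Ffar3 held 3 (71.0%). The windows at the other 3 Ffar2 starts each held 3, as for Ffar3. Among the members not printed, the Ffar4 window held 11 CpG, Ffar1 8, Hcar1 6 and Gpr84 3. The median over all windows was 6. Over the 8 members found in the table, with 11 windows, 0 held the letters TATAAA on either strand, a motif present in 12.4% of all windows. Hcar2 and Olfr78 were not matched. These counts describe the sequences, and no link to the levels was tested.

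Receptors for long-chain fatty acids differed from each other. Ffar4 (chromosome 19, 38097071 to 38114263, plus strand) encodes GPR120, found on hormone-secreting cells, adipocytes and macrophages. It was the most abundant receptor of the 8 in all 5 libraries, at 2.91, 2.81 and 3.26 in WT, against 3.17 in KO 2 and 2.88 in KO 3. WT 3 and KO 2 were the highest, and the groups overlapped. The difference was 0.04 ± 0.18 (SE; limma adjusted p = 0.99998). Ffar1, which encodes GPR40 of hormone-secreting and pancreatic beta cells, was lower, at 0.62, 0.98 and 0.44 in WT, against 1.09 in KO 2 and 0.60 in KO 3. Its range of 0.66 was the widest of the 10 genes.

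WT 2 and KO 2 were the high libraries for Ffar1, one in each group. The difference was 0.16 ± 0.21 (SE; limma adjusted p = 0.99998), and it was -0.09 without KO 2. The same libraries were high in the summed level of 5 B and T cell markers, at 4.71 in WT 2 and 5.53 in KO 2 against 2.02 to 2.79 in the others. The 7 macrophage markers summed to 6.65 in WT 2 and 6.53 in KO 2, against 5.77 to 6.06 in the others. The summed level of 10 enteroendocrine markers, all above 0, lay between 6.88 and 7.05 and was lowest in WT 2, though not in each marker. The part of any of these cell types in the Ffar1 values was not tested.

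**Figure D4:**
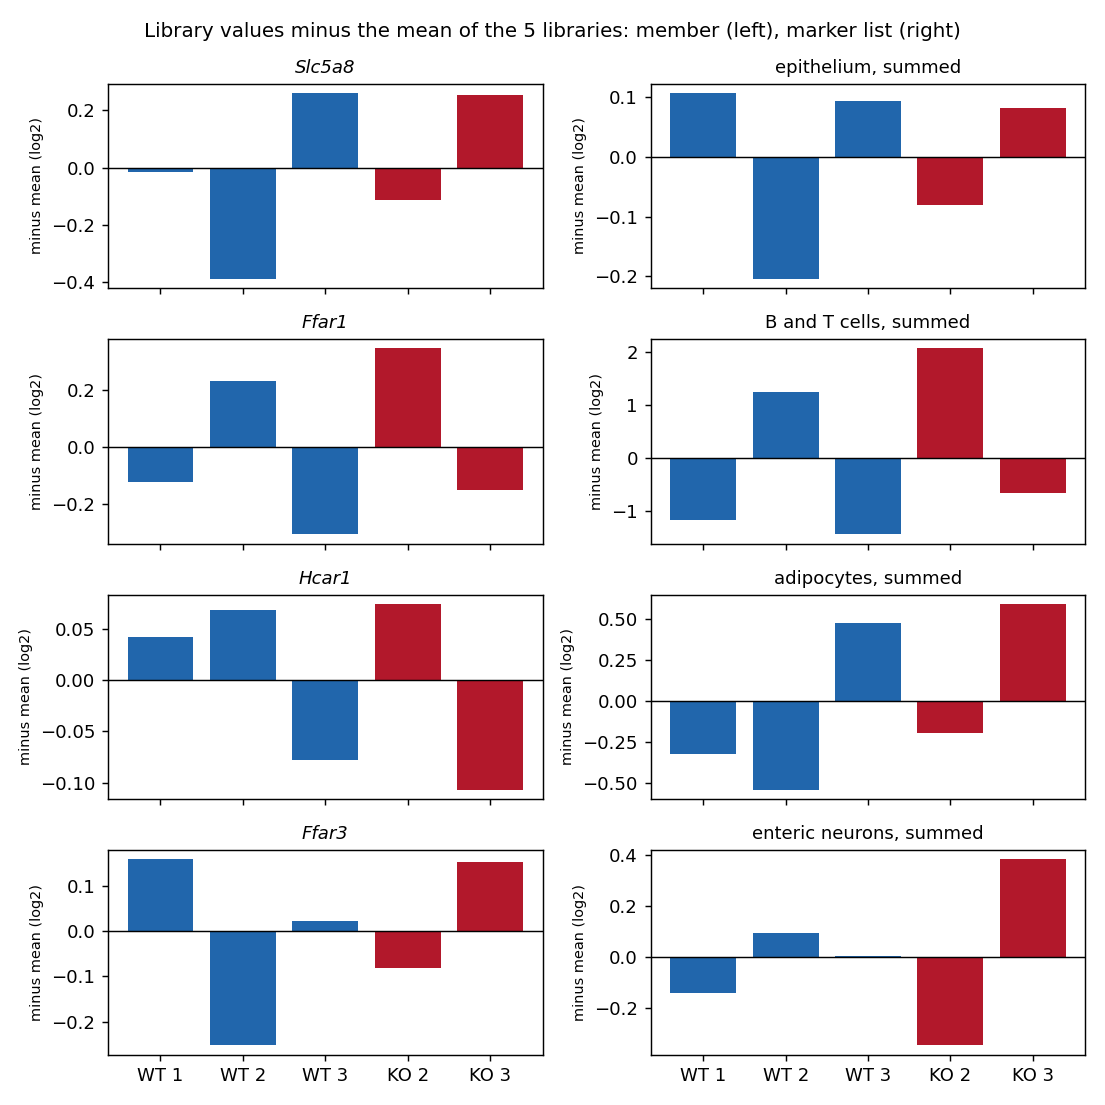
Value of each library minus the mean of the 5 libraries (y axis, log2; scales differ between panels) for 4 members on the left and a summed marker list on the right, blue for WT and red for KO. WT 2 and KO 2 are high in Ffar1 and in B and T cell markers, WT 2 is low in Slc5a8 and epithelium, and Hcar1 is low in WT 3 and KO 3, where adipocyte markers are high. Macrophage markers, not drawn, are also high in WT 2 and KO 2.

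The hydroxycarboxylic acid receptors differed in level. Hcar1 (chromosome 5, 123876736 to 123880020, minus strand) encodes GPR81, the lactate receptor best known from adipocytes. It stood at 1.47, 1.499 and 1.35 in WT, against 1.505 in KO 2 and 1.32 in KO 3, the narrowest range of the 10 genes (0.18). The difference was -0.03 ± 0.15 (SE; limma adjusted p = 0.99998). Adipocyte markers varied more: the summed level of 7 of them was 5.80 in WT 3 and 5.92 in KO 3 against 4.78 to 5.13 in the others. Hcar1 was lowest in WT 3 and KO 3. Adipoq, the defining adipocyte marker of the list, stood at 2.97 and 2.75 in these libraries and at 1.03 to 1.95 in the others. The part of adipocytes in the Hcar1 values was not tested.

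Hcar2 lies 11236 bases beyond Hcar1 on the same strand (chromosome 5, 123863570 to 123865499) and encodes GPR109A, which binds niacin, butyrate and the ketone body beta-hydroxybutyrate. It was low, at 0.25, 0.30 and 0.31 in WT, against 0.20 in KO 2 and 0.39 in KO 3. KO 2 was the lowest and KO 3 the highest of the 5 libraries. The difference was 0.01 ± 0.07 (SE; limma adjusted p = 0.99998). This low level leaves little room for a decrease on the log scale.

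Gpr84 (chromosome 15, 103308235 to 103310612, minus strand), a receptor for medium-chain fatty acids on activated myeloid cells, was listed at 0 in WT 1, KO 2, KO 3 and KO 1, which covers its chromosome. It stood at 0.10 in WT 2 and 0.21 in WT 3. Of its exonic bases, 39.5% overlap Gm49482 on the opposite strand, which stood at 0 to 0.05 in the 5 libraries. The summed level of 7 neutrophil markers was 2.69 to 2.86 in WT, against 3.03 in KO 2 and 3.41 in KO 3. Of these markers, 4 of 7 were above 0 in all 5 libraries. Gpr84 was listed at 0 in the 2 KO libraries, which were the highest in the summed neutrophil markers, but not in each of them. S100a8 was highest in KO 3 (0.99), whereas S100a9 was highest in WT 3 (0.36). Retnlg was the largest part of the sum in all 5 libraries. It stood at 2.32, 2.23 and 1.79 in WT, against 2.31 in KO 2 and 2.86 in KO 3. In KO 1 it was at 1.22 after rescaling, below WT. The summed level of 7 macrophage markers was 6.06, 6.65 and 5.89 in WT, against 6.53 in KO 2 and 5.77 in KO 3. The part of either cell type in the Gpr84 values was not tested.

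**Figure D5:**
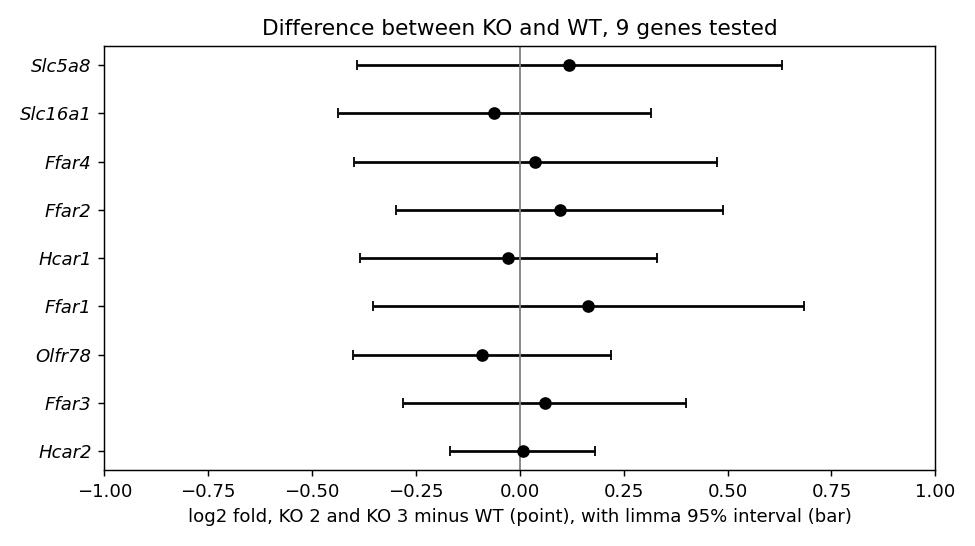
Difference of KO 2 and KO 3 from WT (x axis, log2; points) with limma's 95% interval (bars) for the 9 genes tested (y axis, ordered by level). Every interval includes 0, from the narrowest, Hcar2 (-0.17 to 0.18), to Ffar1 (-0.35 to 0.68).

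Other genes of fatty acid transport, metabolism and signalling were taken from 6 lists with 79 genes, of which 76 were tested. By limma, 0 passed in either direction and 0 had an unadjusted p under 0.05. Of the 76, 48 were higher and 28 lower in KO, where 61.1% of all genes tested were higher. The median log2 difference was 0.04, against 0.03 over all genes tested. In 10 (13.2%) the groups did not overlap, against 13.6% of all genes tested. Of these 10, 7 were higher and 3 lower.

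Of 11 other transport genes, 5 were higher and 6 lower (median -0.0045). Those with the smallest p were Slc16a8 (0.14), Slc16a6 (0.16) and Slc16a7 (-0.21), as log2 differences. Slc26a3, which exchanges chloride for bicarbonate, stood at 5.26 to 5.56. Abcg2, an efflux pump of the apical membrane, was at 5.73, 5.36 and 5.99 in WT, against 5.70 in KO 2 and 6.01 in KO 3.

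Of 15 tested genes of short-chain fatty acid activation and ketone body metabolism, 10 were higher and 5 lower (median 0.08), and 6 (40%) had groups that do not overlap, against 13.6% of all genes tested. All 3 genes of the acyl-CoA synthetase short-chain family, which couple acetate or propionate to coenzyme A, were among those 6. Acss2 stood at 4.03, 4.03 and 4.003 in WT, against 4.19 in KO 2 and 4.16 in KO 3. Acss1 stood at 3.98, 4.05 and 3.87 in WT, against 4.06 in KO 2 and 4.13 in KO 3. Acss3 stood at 0.91, 0.92 and 1.11 in WT, against 1.14 in KO 2 and 1.47 in KO 3. The gaps between the groups were narrow for Acss1 and Acss3, and Acss3 in KO 1 was 0.41 after rescaling, below WT. Pcca, a subunit of propionyl-CoA carboxylase, had groups apart with a log2 difference of 0.13, and its rescaled value in KO 1 was 3.33, below the WT libraries at 3.46 to 3.55. Oxct1 (-0.15), which uses ketone bodies, had lower values in both KO 2 and KO 3 than in any WT library. KO 1 was at 4.93 after rescaling, below WT as it was for Acss3 and Pcca, which were higher in KO 2 and KO 3. Low values in KO 1 thus did not follow the direction in KO 2 and KO 3. No gene of the list passed by limma.

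Of 21 genes for G proteins, arrestins, receptor kinases and effectors, 11 were higher and 10 lower (median 0.01), with differences from -0.14 for Gnal to 0.24 for Grk6. The groups overlapped in all 21, where 13.6% of all genes tested had groups that do not overlap. Of 12 other metabolite and lipid receptors tested, 8 were higher and 4 lower (median 0.01). In 1 of them (8.33%), Gpr55, the groups did not overlap, with lower values in KO 2 and KO 3. Gpr18, a receptor of lymphoid cells, had the widest difference at 0.54 ± 0.33 (SE; limma adjusted p = 0.99998). It stood at 1.84, 2.20 and 1.32 in WT, against 2.71 in KO 2 and 1.95 in KO 3, with WT 2 and KO 2 high as for the B and T cell markers. Oxgr1, the receptor for oxoglutarate, was listed at 0 in all 5 libraries.

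Of 9 intracellular sensors and histone deacetylases, the latter inhibited by butyrate, 7 were higher and 2 lower (median 0.11). Over all genes tested, 61.1% were higher, with a median of 0.03. In 1 of the 9 (11.1%) the groups did not overlap, against 13.6% of all genes tested. Ppara, a nuclear receptor activated by fatty acids, had a log2 difference of 0.31, Hdac1 of 0.27 and Hdac3 of 0.11. Of 8 genes of long-chain fatty acid uptake, 7 were higher and 1 lower (median 0.15), and 2 (25%) had groups that do not overlap. Fabp2, the intestinal fatty acid binding protein, had a log2 difference of 0.39, with KO 3 at 7.71 and KO 2 at 6.80, inside the WT range of 6.59 to 7.05. Acsl3, which activates long-chain fatty acids, stood at 2.66, 2.84 and 2.88 in WT, against 3.04 in KO 2 and 3.07 in KO 3 (log2 difference 0.26). In KO 1 it was at 2.79 after rescaling, within the WT values.

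The genes whose pattern over the 5 libraries was most like that of each member with a mean of 1 or more were found by the root mean square difference of log2 values after centring. For Slc5a8 these were Abcg2 (0.031), S100a16 (0.040) and Pard6b (0.041), among 4027 genes of similar or wider spread. For Slc16a1 they were Ckap4 (0.021), Prom1 (0.023) and Slc39a7 (0.026). For Ffar4 they were Gapdh (0.028), a glycolytic enzyme used as a reference gene, Eif1a (0.029) and Rps19bp1 (0.032). For Ffar2 they were Eif1ax (0.0067), Casc4 (0.015) and Sycp3 (0.017), and for Hcar1 they were Htra2 (0.013), Gm12981 (0.015) and Gm10390 (0.015). With 5 libraries such neighbours are many: 3196 genes lay within 0.1 of Hcar1, 1263 of Ffar2, 338 of Slc16a1, 218 of Ffar4 and 52 of Slc5a8.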

How the data were processed

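The deposited table holds log values of 6 libraries, taken as log2 of abundance plus 1; how the authors scaled them was not stated in the sources used here. The genome build named is mm10, per the submitters' processing notes. The aligner, counter and strand setting were not stated either. RNA was polyadenylated RNA, made into stranded libraries, per the labels' protocols. Of 32245 rows, 26 with a date for a symbol were left out. GENCODE vM21 placed 31398 genes. Genes above 0 in at least 3 of 5 libraries were kept (22047). KO 2 and KO 3 were compared with 3 WT libraries by limma 3.58.1 (R 4.3.3), with a variance trend, 2-sided, and Benjamini-Hochberg adjustment over all genes kept. The linear values of KO 1 were divided by 2.12, the median ratio over 2160 covered genes at 4 or more. Marker lists were summed on the linear scale. The test was tried on simulated data. The 10 members, the lists and the tests were chosen with earlier results of these data known. Named are all members, up to 3 genes of each list by smallest p, markers, and 3 genes most like each member with a mean of 1 or more. Slc26a3, Abcg2, Bsg, Oxgr1, Acss1, Pcca and Oxct1 were named after their values were seen. Other settings covered KO 1, scaling, filter, added constant, log base, variance model and left-out libraries. Some genes of the lists are not reported here by name.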

Additional observations from a re-analysis of the deposited data

Results flagged for a closer look

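Slc5a8 stood at 7.18 in KO 1 as deposited, a library that the comparison does not use, above the WT values of 5.56 to 6.21. After division by 2.12, the factor of the covered genes, it stood at 6.11, within the WT values.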

How the results depend on the processing

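No member passed by limma under any of the 16 other settings (lowest adjusted p 0.718), and 0 of 140 member values did; 114 kept their direction. The 26 that turned were at most 0.11 in size, apart from those with KO 1 as deposited, where its missing values enter as 0: Ffar1 -0.12, Ffar2 -0.62, Ffar3 -0.098, Ffar4 -0.97 and Hcar2 -0.091. Leaving out 1 library gave -0.085 to 0.41 for Ffar1, -0.058 to 0.18 for Ffar3, -0.11 to 0.18 for Ffar4, -0.12 to 0.063 for Hcar1, -0.087 to 0.099 for Hcar2, -0.19 to 0.0092 for Olfr78, -0.15 to 0.083 for Slc16a1 and -0.064 to 0.30 for Slc5a8; where KO was left with 1 library, its spread was taken from WT. Ffar2 stayed at 0.0094 to 0.17. Ffar4 turned to -0.020 with median centring and -0.0046 with quantile normalization, and Hcar2 to -0.051 and -0.014, and to -0.0048 with an added constant of 0.1. With the replicate number as a block, Ffar4 was -0.0055 and Hcar2 -0.012, and 0 genes passed; WT 1 has no partner there, and nothing in the labels says that a number marks a shared animal or batch.

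The 1 gene called among all 22047 was lost (0 called, lowest adjusted p 0.0584 to 0.470) with KO 1 as deposited, no filter, the filter at a mean of 1 and the constant of 0.1, and leaving out any 1 library gave 0 to 0; the cause was not tested. A natural log would multiply each fold by 1 constant, with Slc5a8 at 0.17. Depth is unknown, so its effect on the genes near 0, Gpr84, Hcar2 and Ffar3 among them, cannot be given.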
